A study of Mus musculus with 12 samples.

Results

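Expression of the cyclin-dependent kinase inhibitor genes was examined in mouse skin across 2 genotypes and 2 treatments. The 8 genes were chosen by symbol: Cdkn2a, Cdkn2b, Cdkn2c and Cdkn2d of the INK4 family, Cdkn1a, Cdkn1b and Cdkn1c of the CIP/KIP family, and Cdkn3, which carries the same symbol root but encodes a phosphatase. They are 8 of the 55453 genes in the count table, and all 8 passed the filter on low counts that left 18311 genes for testing. Cdkn2a passed it only through the mice given bleomycin, where its counts were high. The group of genes was picked with earlier results of these same mice known, Cdkn2a in particular, so that differences of its members between groups are given as descriptions. The adjusted p-values say only which members a fit across all tested genes called, at 0.05 after Benjamini-Hochberg adjustment in edgeR's quasi-likelihood test.

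The skin came from 12 mice on the C57/BL6 background, 3 in each of 4 groups. WT PBS and WT BLM were wild-type animals that received PBS or bleomycin, and KO PBS and KO BLM were animals with the Thy1-knockout genotype that received the same agents. Bleomycin is a DNA-breaking drug that causes dermal fibrosis when injected under the skin. It was given at 10 mg/kg per day, or PBS in its place, by daily subcutaneous injection into the dorsal back. The skin was harvested at day 21. Injections are described as lasting up to 14 days, whereas the design text gives a treatment of 21 days. How long these mice were injected is not settled here. Knockout animals were females of 8 to 12 weeks, the wild-type animals were C57BL/6J with no age stated, control mice are described as littermates without a litter being given for any mouse, and the diet of the sequenced mice is not named in the labels. The knockout genotype is not limited to fibroblasts, and it is shared by the PBS and bleomycin groups of the KO arm. Mice are named here by the number in their label.

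Cyclin-dependent kinases drive a cell through its division cycle when bound to cyclins. INK4 proteins bind Cdk4 and Cdk6 and keep them from D-type cyclins, which leaves the retinoblastoma protein able to hold E2F transcription factors inactive. CIP/KIP proteins bind cyclin-kinase complexes more broadly, above all those of Cdk2. Cdkn2a is unusual in having separate start sites and first exons that give p16Ink4a, an INK4 protein, and p19Arf, which restrains Mdm2 and thereby stabilises p53. Cdkn2a and Cdkn1a are widely used marks of cellular senescence, a lasting arrest in which cells also secrete cytokines, proteases and protease inhibitors.

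Cdkn2a and Cdkn2b lie beside each other on the minus strand of chromosome 4 in GRCm38, Cdkn2a at 89274471 to 89294653 and Cdkn2b at 89306299 to 89311039 in GENCODE M21, with 11645 bases between them. The windows of 250 bases before their start sites are printed because Cdkn2a was the member that differed most between PBS and bleomycin and its neighbour Cdkn2b did not follow it in size. They were taken from RefSeq on GRCm38.p6, which had windows for 7 of the 8 genes, and read 5′ to 3′ on the minus strand. Capitals mark a GC box (GGGCGG or its complement) or an E2F motif (TTCCCGC or TTCGCGC or TTGCCGC or TTGGCGC, or a complement of these).
Cdkn2a, upstream start site (the p19Arf exon), chr4:89294620-89294869: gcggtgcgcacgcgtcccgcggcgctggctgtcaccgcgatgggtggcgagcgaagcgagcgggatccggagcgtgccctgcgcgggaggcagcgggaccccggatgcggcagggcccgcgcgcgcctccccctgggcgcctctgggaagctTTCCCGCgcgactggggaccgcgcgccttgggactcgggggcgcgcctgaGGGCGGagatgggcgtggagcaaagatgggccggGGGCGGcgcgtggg
Cdkn2a, downstream start site (the p16Ink4a exon), chr4:89282193-89282442: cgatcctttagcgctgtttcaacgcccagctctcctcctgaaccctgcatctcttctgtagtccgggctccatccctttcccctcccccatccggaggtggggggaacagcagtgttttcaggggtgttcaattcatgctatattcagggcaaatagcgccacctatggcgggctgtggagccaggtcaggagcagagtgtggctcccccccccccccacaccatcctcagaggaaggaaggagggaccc
Cdkn2b, chr4:89311033-89311282: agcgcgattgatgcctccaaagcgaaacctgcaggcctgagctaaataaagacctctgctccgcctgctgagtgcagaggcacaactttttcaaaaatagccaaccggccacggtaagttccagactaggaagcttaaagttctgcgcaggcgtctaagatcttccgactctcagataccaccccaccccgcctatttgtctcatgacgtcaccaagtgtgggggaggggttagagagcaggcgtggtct

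The Cdkn2a start sites were 12427 bases apart, and their windows differed in composition. The upstream window was 78.4% G or C and held 40 CpG dinucleotides, 2 GC boxes and 1 E2F motif. The downstream window was 60% G or C and held 7 CpG dinucleotides and none of the motifs searched, which also included the E-box CACGTG, the AP-1 motif TGANTCA, the CCAAT box and the CHR element TTTGAA. The Cdkn2b window, at 53.6% G or C, held 12 CpG dinucleotides and 1 TTTGAA. Searched on both strands, a GC box was present in 32.7%, an E2F motif in 7.89% and TTTGAA in 16% of 32841 RefSeq windows of this length. The count table has 1 row for Cdkn2a, so reads from the p16Ink4a and p19Arf transcripts cannot be told apart.

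Total counts ran from 26473700 to 38890450 per mouse. As a check of the labels, Thy1 was at 45.6 to 96.9 counts per 1000000 library counts (CPM) in KO PBS against 104 to 150 CPM in WT PBS, and at 84.7 to 128 CPM in KO BLM against 231 to 416 CPM in WT BLM, so that the genotypes did not overlap within a treatment. KO PBS differed from WT PBS in Thy1 by a log2 value of -0.75 (adjusted p = 0.224), and KO BLM differed from WT BLM by -1.69 (adjusted p = 0.112), neither called, and reads remained in the knockouts; gene-level counts do not show which exons they come from. The state of the hair divided the mice. The mean log2 CPM of 29 genes of growing hair (keratins and keratin-associated proteins of the shaft, and follicle regulators) was 9.38, 10.09 and 9.65 in WT PBS and -0.30, 3.30 and -0.47 in WT BLM. In KO PBS it was 10.05 in mouse 136 but -0.74 and 2.13 in mice 137 and 139, and in KO BLM it was 8.94 in mouse 141 against 4.82 and 5.95 in mice 143 and 144. Hair state and bleomycin therefore cannot be told apart between the WT groups, and the KO responses are given with all mice and without mice 136 and 141.

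The largest difference of the 8 genes was in Cdkn2a. It was barely detected under PBS and present in every mouse given bleomycin, in both genotypes. Counts in WT PBS were 4, 2 and 8, which is 0.135, 0.0658 and 0.204 CPM. In WT BLM they were 257, 317 and 498, which is 10.1, 10.3 and 16.3 CPM. Every WT BLM mouse was far above every WT PBS mouse. In KO PBS the counts were 4, 11 and 8 in mice 136, 137 and 139 (0.133, 0.314 and 0.238 CPM), and in KO BLM they were 80, 226 and 319 in mice 141, 143 and 144 (2.45, 7.01 and 11.3 CPM). The KO groups did not overlap either, and mouse 141 was the lowest of the bleomycin-treated mice. The mean rose 90.7-fold in WT, from 0.135 ± 0.069 to 12.2 ± 3.55 CPM (SD, n = 3), and 30.2-fold in KO, from 0.229 ± 0.0911 to 6.91 ± 4.41 CPM. The summed counts under PBS were 14 in WT (exact Poisson 95% interval 7.65 to 23.5) and 23 in KO (14.6 to 34.5), intervals that cover counting error only, so the size of the folds rests on few reads.

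**Figure D1:**
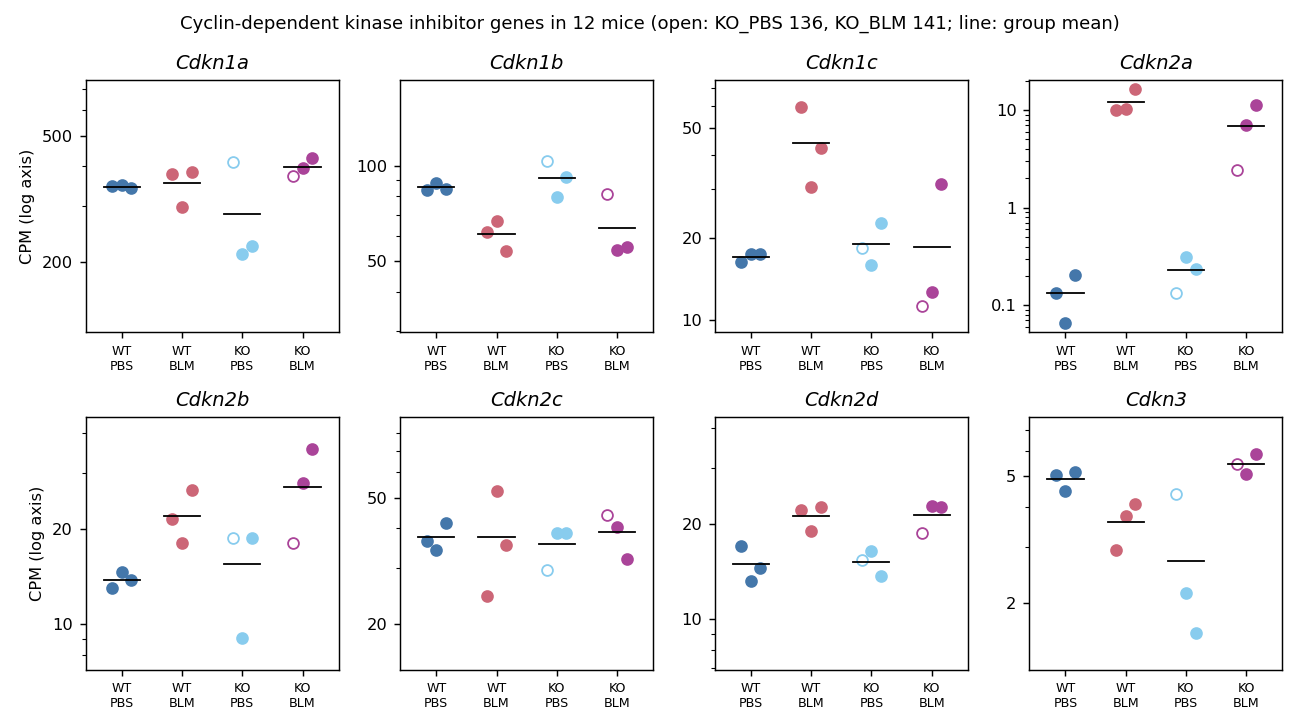
Each panel shows 1 inhibitor gene in CPM on a log axis, with 1 point per mouse, the WT groups on the left and the KO groups on the right, and a line at the group mean; open points are KO PBS mouse 136 and KO BLM mouse 141. Cdkn2a sits between 0.0658 and 0.314 CPM in the PBS mice and between 2.45 and 16.3 CPM in the bleomycin mice, while Cdkn1a stays between 211 and 425 CPM.

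In the fit across all genes the log2 fold change of Cdkn2a was 6.43 in WT (SE 0.66, 95% interval 4.97 to 7.88, adjusted p = 0.00215) and 4.88 in KO (SE 0.61, 3.54 to 6.22, adjusted p = 0.0305). The difference between the responses, KO minus WT, was -1.55 (interval -3.41 to 0.31, adjusted p = 0.222), and KO BLM against WT BLM was -0.83 (-1.90 to 0.25, adjusted p = 0.387), so these data do not separate the genotypes and leave room for a lower level in KO. Under PBS the genotypes differed by 0.72 (-0.79 to 2.23, adjusted p = 0.524). Cdkn2a was in this fit only through its counts under bleomycin, and it did not pass the filter when the PBS groups were fitted alone. The WT call held when any 1 mouse was left out, with log2 fold changes from 6.05 to 6.88. The KO value moved as little, from 4.33 to 5.28, but its adjusted p ran from 0.00466 to 0.146 and stayed above the threshold in 7 of the 12 such fits: without WT PBS mice 159 (0.0590), 160 (0.0607) or 161 (0.0604), KO PBS mice 137 (0.0582) or 139 (0.146), or KO BLM mice 143 (0.0981) or 144 (0.0769). Those 7 fits called few genes at all in the KO response: 14 without mouse 137, 3 without mouse 160 and 0 in each of the others. With only the KO mice in the fit the adjusted p of Cdkn2a was 0.271, and 0 genes were called.

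The hair values allow a closer look at Cdkn2a. KO PBS mice 137 and 139 had little hair gene expression, as the WT BLM mice had, and their Cdkn2a stood at 0.314 and 0.238 CPM against 10.1 CPM or more in WT BLM. Conversely, KO BLM mouse 141 had hair genes at 8.94, near the 10.05 of KO PBS mouse 136, and its Cdkn2a was 2.45 CPM against 0.133 CPM in that mouse. These pairings were chosen after the values were seen, with 1 bleomycin mouse at the high end and mice of different genotypes at the low end, so hair state and bleomycin still cannot be told apart in WT. With the hair mean as a covariate the log2 fold change was 4.86 in WT (adjusted p = 0.0940) and 5.45 in KO (adjusted p = 0.00240). That fit called 0.0382% of all genes in WT, against 34.0% without the covariate, and 9.02% in KO. Without mice 136 and 141 the log2 fold change of Cdkn2a was 6.41 and 5.02. Among marker lists, the summed level of 7 T cell genes was 17.5 to 19.6 CPM and 52.0 to 79.2 CPM in the PBS and bleomycin mice of WT, and 17.5 to 50.7 CPM and 51.4 to 99.6 CPM in those of KO, and that of 5 neutrophil genes was 9.89 to 24.4 CPM over all PBS mice and 20.2 to 460 CPM over all bleomycin mice. The WT groups were also apart in 9 fibroblast genes (6240 to 8510 CPM under PBS and 12500 to 39700 CPM under bleomycin), 7 suprabasal epidermal genes (4010 to 5720 and 8480 to 23600 CPM), 8 skeletal muscle genes (5640 to 6210 and 19300 to 39100 CPM) and 6 endothelial genes (156 to 170 and 182 to 468 CPM). In KO the corresponding ranges overlapped, at 5880 to 18800 and 9450 to 25400 CPM, 4050 to 13900 and 7690 to 34400 CPM, 7090 to 29200 and 11300 to 21100 CPM, and 141 to 291 and 223 to 249 CPM. Basal epidermal genes (7) and adipocyte genes (6) overlapped between treatments in WT, at 7830 to 8670 and 6640 to 14200 CPM and at 620 to 842 and 197 to 1130 CPM. In KO the basal epidermal genes overlapped too, at 10400 to 15800 and 9490 to 18200 CPM. The adipocyte genes were apart in KO, at 868 to 1770 CPM under PBS and 226 to 817 CPM under bleomycin. No marker of these lists was at 0 in all mice, and the part of these cells in the Cdkn2a level was not tested. In whole skin, more cells with a transcript and more transcript per cell cannot be told apart.

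**Figure D2:**
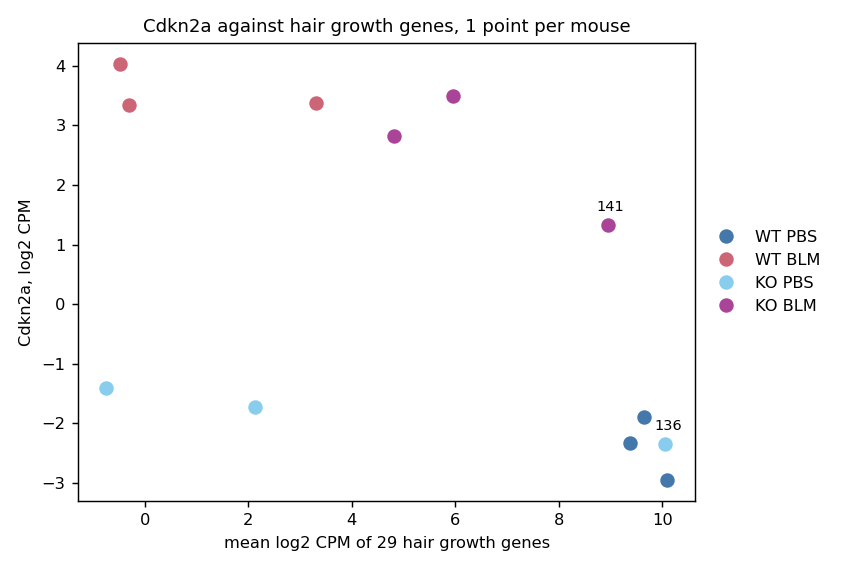
Cdkn2a (log2 CPM, vertical axis) is plotted against the mean log2 CPM of 29 hair growth genes (horizontal axis), 1 point per mouse, coloured by group, with mice 136 and 141 numbered. All 6 bleomycin mice lie above 1 and all 6 PBS mice below -1 on the vertical axis.

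Cdkn2b, whose product p15 is an INK4 inhibitor known as a target of TGF-β, differed far less than its neighbour. It was at 13, 14.6 and 13.8 CPM in WT PBS and 21.5, 18.1 and 26.5 CPM in WT BLM, groups that did not overlap. In KO PBS it was at 18.7, 9.09 and 18.7 CPM and in KO BLM at 18.0, 27.8 and 35.6 CPM, where mouse 141 fell within the PBS range. Cdkn2b had a log2 fold change of 0.67 in WT (SE 0.30, adjusted p = 0.105) and 0.81 in KO (SE 0.30, adjusted p = 0.185), neither past the threshold. Without mice 136 and 141 the KO value was 1.19 with an adjusted p of 0.0291, where 22.3% of all genes were called.

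Cdkn2d, which encodes p19Ink4d, was higher under bleomycin by nearly the same amount in both genotypes. WT PBS mice had 17.0, 13.2 and 14.5 CPM and WT BLM mice 22.1, 19.0 and 22.5 CPM. KO PBS mice had 15.3, 16.4 and 13.7 CPM and KO BLM mice 18.7, 22.7 and 22.6 CPM. No bleomycin mouse overlapped the PBS mice of its genotype. For Cdkn2d the log2 fold change was 0.51 in WT (SE 0.14, adjusted p = 0.0250), which was called, and 0.49 in KO (SE 0.14, adjusted p = 0.137), which was not, and the responses differed by -0.01 (interval -0.46 to 0.44). Without mice 136 and 141 the KO value was 0.59 and was called (adjusted p = 0.0329), where 22.3% of all genes were called. The WT call was lost in 4 of the 12 fits that left out a mouse, with 0.35 to 0.49 without WT PBS mice 160 or 161 or WT BLM mice 145 or 147. It was also lost without a filter on low counts (0.46, adjusted p = 0.0879) and with the hair mean as a covariate (0.34, adjusted p = 0.668), where 0.0382% of all genes were called. Cdkn2d lies at 21288410 to 21291407 on chromosome 9, the chromosome of Thy1, 22.8 megabases away.

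Cdkn2c, which encodes p18Ink4c, showed no difference beyond its spread. Its mean under PBS and bleomycin was 37.5 ± 3.83 and 37.5 ± 14.2 CPM in WT, and 35.6 ± 5.28 and 38.9 ± 6.24 CPM in KO (SD, n = 3). The widest spread was among the WT BLM mice, at 24.4, 52.6 and 35.5 CPM. Cdkn2c had a log2 fold change of 0.00 in WT (interval -0.55 to 0.55) and 0.13 in KO (-0.42 to 0.67), or -0.10 without mice 136 and 141 (adjusted p = 0.831).

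Cdkn1a, which encodes p21 and is a direct target of p53, was the most abundant member and was not called between bleomycin and PBS in WT. WT PBS mice had 346, 348 and 342 CPM and WT BLM mice 378, 297 and 385 CPM, which overlapped. The log2 fold change in WT was 0.03, with an interval of -0.49 to 0.55, and 0.59 with the hair mean as a covariate (adjusted p = 0.541). In KO PBS the 3 mice were apart, at 414 CPM in mouse 136 against 211 and 225 CPM in mice 137 and 139, while KO BLM mice had 374, 396 and 425 CPM. The KO log2 fold change of 0.49 (SE 0.24, adjusted p = 0.271) was not called with all mice. Without mouse 136 it was 0.87 (adjusted p = 0.0112), and KO PBS was then below WT PBS by 0.66 on the log2 scale (adjusted p = 0.00695). The KO value was 0.91 (adjusted p = 0.00952) without mice 136 and 141. Mouse 136 thus decided these calls for Cdkn1a. It is also the KO PBS mouse with growing hair, and with the hair mean as a covariate over all mice the KO value was 0.39 (adjusted p = 0.207) and the PBS comparison 0.02 (adjusted p = 0.999).

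A match to the p53 consensus before Cdkn1a is shown because p53 responds to DNA breaks and Cdkn1a was not called in either genotype with all mice. The paired p53 consensus was searched on both strands with up to 13 bases between its parts. A match lay on the plus strand at chr17:29090906-29090937 in GRCm38.p6. It was 42 bases before the upstream RefSeq start site of Cdkn1a and 2832 bases before the downstream one. The capitals mark the parts that match the search pattern. The bases directly after them in the window, tgacatgttc, miss the pattern of such a part at their first base only. They may therefore belong to the site that p53 binds, and which parts p53 uses was not tested.
Cdkn1a, p53 consensus match: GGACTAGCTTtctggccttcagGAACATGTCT
Such a pair was present in 21 of the 32841 windows, or 0.0639%, and among the members in the upstream Cdkn1a window alone. The gene itself spans 29090976 to 29100727 on chromosome 17 and overlaps AC167363.2 on the other strand by 1046 bases; whether the counting used strand is not given in the sources used here.

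Cdkn1b, which encodes p27, fell with bleomycin in WT. It was at 84.0, 87.9 and 84.6 CPM in WT PBS and 61.6, 66.9 and 53.8 CPM in WT BLM. In KO PBS it was at 103, 79.3 and 92.0 CPM in mice 136, 137 and 139, and in KO BLM at 81.2, 54.3 and 55.5 CPM in mice 141, 143 and 144. The WT groups did not overlap, whereas mouse 141 reached into the KO PBS range. The log2 fold change was -0.49 in WT (SE 0.17, adjusted p = 0.0437) and -0.52 in KO (SE 0.17, adjusted p = 0.156). Leaving out mice 136 and 141 gave -0.64 in KO, which was called (adjusted p = 0.0126), where 22.3% of all genes were called. The difference between the responses was -0.03 (interval -0.55 to 0.49). The WT call was close to the threshold and was lost in 7 of the 12 fits that left out a mouse, those without any 1 of the WT mice (-0.41 to -0.57) or KO PBS mouse 139 (-0.49). Without a filter on low counts its adjusted p was 0.052. With the hair mean as a covariate the WT value was -0.06 (adjusted p = 0.972), in a fit that called 0.0382% of all genes.

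Cdkn1c, the imprinted gene of p57, was higher after bleomycin in WT. It stood at 16.3, 17.4 and 17.4 CPM in WT PBS and at 59.9, 30.6 and 42.5 CPM in WT BLM, without overlap. In KO PBS it was at 18.3, 15.9 and 22.6 CPM, and in KO BLM at 11.3, 12.7 and 31.4 CPM. Of the KO BLM mice, mouse 144 alone reached the WT BLM range, and the other two were below all KO PBS mice. The log2 fold change was 1.38 in WT (SE 0.37, adjusted p = 0.0212) and -0.04 in KO (SE 0.37, adjusted p = 0.964), where it was 0.19 without mice 136 and 141 (adjusted p = 0.752). The difference between the responses was -1.42 (interval -2.57 to -0.26, unadjusted p = 0.0206, adjusted p = 0.111), which did not pass the threshold over all genes. The WT call was lost in 4 of the 12 fits that left out a mouse, those without WT PBS mice 159 (1.34), 160 (1.31) or 161 (1.39) or WT BLM mouse 145 (1.10). With the hair mean as a covariate the WT value was 1.07 (adjusted p = 0.594), in a fit that called 0.0382% of all genes. Cdkn1c overlaps the antisense gene Gm44732 by 892 bases at its locus on chromosome 7, 143458339 to 143461050, so part of its counts may belong to that gene if strand was not used.

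**Figure D3:**
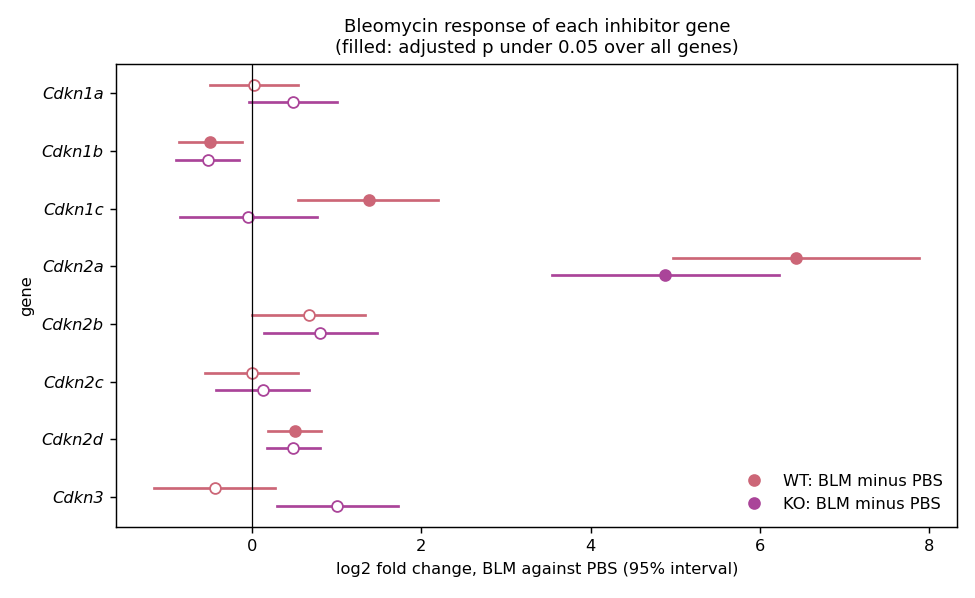
Log2 fold change of each inhibitor gene, bleomycin against PBS, with its 95% interval, in WT and in KO mice; filled points passed an adjusted p of 0.05 over all tested genes. Cdkn2a stands apart at 6.43 in WT and 4.88 in KO, and Cdkn1c and Cdkn3 are the genes whose estimates lie farthest apart between genotypes relative to their intervals.

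Cdkn3, a phosphatase that acts on Cdk2 and is expressed in dividing cells, had estimates of opposite sign in the genotypes. WT PBS mice had 5.04, 4.51 and 5.15 CPM and WT BLM mice 2.94, 3.75 and 4.10 CPM, so every WT BLM mouse was lower. KO PBS mice had 4.39, 2.14 and 1.61 CPM and KO BLM mice 5.48, 5.09 and 5.87 CPM, so every KO BLM mouse was higher. For Cdkn3 the log2 fold change was -0.44 in WT (SE 0.32, adjusted p = 0.293) and 1.01 in KO (SE 0.32, adjusted p = 0.157). The difference between the responses was 1.46 (interval 0.45 to 2.47, adjusted p = 0.0868). Without mouse 136, the highest of the KO PBS mice, the difference was 1.99 (adjusted p = 0.000972) and the KO response 1.54 (adjusted p = 0.00853), and without mice 136 and 141 they were 1.99 (adjusted p = 0.00176) and 1.54 (adjusted p = 0.0084). With the hair mean as a covariate the WT value changed sign to 0.36 (adjusted p = 0.847), the KO value was 0.86 (adjusted p = 0.061) and the difference 0.50 (adjusted p = 0.808).

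Over the family, 4 of the 8 genes were called between WT BLM and WT PBS, 3 higher (Cdkn2a, Cdkn1c and Cdkn2d) and 1 lower (Cdkn1b), where 34.0% of all tested genes were called, 19.8% higher and 14.1% lower. Their median log2 fold change was 0.27 beside 0.018 over all genes. Ranges did not overlap for 6 of the 8, where 57.0% of all genes did not overlap. Between KO BLM and KO PBS 1 of 8 was called, Cdkn2a, where 0.306% of all genes were called, and 3 of 8 did not overlap (Cdkn2a, Cdkn2d and Cdkn3, all higher), where 19.3% of all genes did not overlap. No member was called between KO PBS and WT PBS (0.0655% of all genes were) or between KO BLM and WT BLM (0.0928%). In each, 1 member had an unadjusted p under 0.05, Cdkn3 and Cdkn1c, as had 3727 and 3043 of the 18311 tested genes. The edgeR test of the difference between responses called no member and 0.00% of all genes. There 2 members had an unadjusted p under 0.05 (Cdkn1c and Cdkn3), as had 5687 of the 18311 tested genes. DESeq2 called 1 member in the difference, Cdkn3 (adjusted p = 0.0157), where it called 17.8% of the genes it tested. Between KO BLM and WT BLM it called 1 member, Cdkn1c (adjusted p = 0.0421), where it called 2.99%. Without mice 136 and 141 the KO response called 6 members, Cdkn1a, Cdkn2a, Cdkn2b, Cdkn2d and Cdkn3 higher and Cdkn1b lower, where 22.3% of all genes were called.

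Levels were compared between the genes per length, as CPM per exonic kilobase. Cdkn1a was highest in all 4 groups, at 97.2 and 99.5 in WT mice given PBS and bleomycin and at 79.8 and 112 in the corresponding KO mice, and did not overlap the gene below it in any group. Under PBS the order below it was Cdkn1b, Cdkn2c, Cdkn2b, Cdkn2d, Cdkn1c, Cdkn3 and Cdkn2a in both genotypes. Cdkn2b overlapped Cdkn2d, and Cdkn2d overlapped Cdkn1c, in both PBS groups, and in KO PBS Cdkn2c also overlapped Cdkn2b. Cdkn2a was last at 0.115 in WT PBS and 0.195 in KO PBS, below Cdkn3 at 2.07 and 1.14 without overlap. Under bleomycin Cdkn2a reached 10.4 in WT and 5.90 in KO, above Cdkn3 at 1.52 and 2.31 in the mean, though in KO BLM the ranges of Cdkn2a and Cdkn3 overlapped. In WT BLM its range overlapped that of Cdkn1b, the next gene up at 13.4, and the 6 genes from Cdkn1c to Cdkn2a each overlapped their neighbour.

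The genes that followed each member most closely over the 12 mice were found by the Pearson correlation of log2 CPM, among 13259 genes. The points share their group differences and their hair state, so the values are descriptions. Cdkn2a was followed most closely by Timp1, an inhibitor of metalloproteinases (r = 0.993), Plaur, the urokinase receptor (0.983), and Ogfr, the opioid growth factor receptor (0.976). Timp1 was at 3.22 to 4.06 CPM in WT PBS and 51.2 to 76.6 CPM in WT BLM, and at 2.66 to 6.63 CPM in KO PBS and 24.0 to 71.6 CPM in KO BLM, again without overlap in either genotype. The closest to Cdkn2b were Klk6, a serine protease (0.943), Clptm1l (0.934) and Krt16, a keratin of stressed epidermis (0.928). The closest to Cdkn3 were Nudcd2 (0.984), Elp5 (0.972) and Cdk7, the kinase that activates other cyclin-dependent kinases (0.972). Cdkn1b was followed by Klhl29 (0.976), Atp8a2 (0.975) and Aldh3a2 (0.961), and Cdkn2d by Hint2 (0.971), Lif (0.966) and Smim3 (0.956). Cdkn1a was followed by Psmc1 (0.963), a proteasome subunit, Msantd3 (0.953) and Tufm (0.953). The weakest best matches were those of Cdkn1c, with Flii (0.907) and Gprc5c (0.896) among them, and of Cdkn2c, with Tnmd (0.901), Ica1 (0.898) and Pde3a (0.895).

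The kinases and cyclins that these inhibitors act on moved mostly down in WT. Of 12 tested genes of the list, 7 fell and 2 rose, where 14.1% of all genes were called lower and 19.8% higher. The list median log2 fold change was -0.89. The INK4 targets differed in direction: Cdk4 fell from 246 to 154 CPM (log2 fold change -0.68, adjusted p = 0.0268), and Cdk6 rose from 39.1 to 63.2 CPM (0.69, adjusted p = 0.00329). Of the D-type cyclins, Ccnd2 fell from 468 to 219 CPM (-1.09, adjusted p = 0.00947), Ccnd3 rose from 51.4 to 118 CPM (1.20, adjusted p = 0.00655) and Ccnd1 had 257 and 194 CPM (-0.41, adjusted p = 0.156). Cdk2, the main CIP/KIP target, fell from 72.8 to 40.4 CPM (-0.85, adjusted p = 0.00599), and the mitotic cyclins Ccnb1 (-1.68) and Ccna2 (-1.39) fell further. In KO 0 of the 12 were called in edgeR, and the median was 0.59; without mouse 136, 7 were called higher, in a fit that called 9.25% of all genes higher.

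Genes downstream of these kinases followed the same split. Over all genes 14.1% were called lower and 19.8% higher in WT. Of 17 genes of the retinoblastoma and E2F list, 7 fell and 1 rose in WT: Mybl2 (-1.99), E2f2 (-1.63) and Foxm1 (-1.22), which drive cell cycle transcription, fell most, and E2f6, a repressor, rose (0.65). Rb1 had 52.1 and 41.1 CPM (-0.34, adjusted p = 0.291). Of 21 genes of replication and mitosis, 18 fell and 0 rose in WT, with a median of -1.09, among them Mki67, a marker of cycling cells (333 to 89.3 CPM), Kif11 (-1.66) and Top2a (-1.49). No gene of either list was called in KO with all mice, where the medians were 0.10 and 0.48. Without mouse 136, where 9.25% of all genes were called higher, 19 of the 21 replication and mitosis genes and 7 of the 17 of the other list were called higher in KO, and 0 and 1 lower. Growing hair follicles divide, and the WT PBS mice and mouse 136 had the highest hair gene values. In the WT fit with the hair mean as a covariate 1 gene of all 8 lists and 0.0382% of all genes were called. In WT the drug and the hair state therefore cannot be told apart for these genes.

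**Figure D4:**
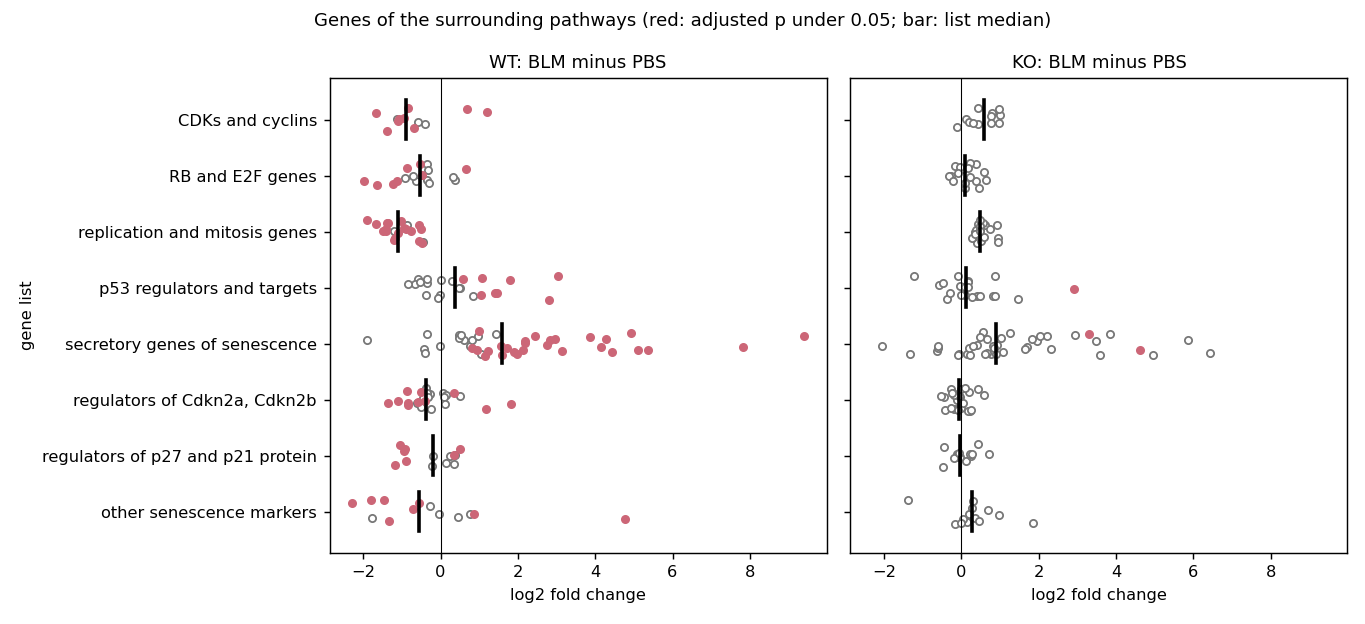
Each point is 1 gene of a pathway list, placed by its log2 fold change between bleomycin and PBS in WT (left) and KO (right); red points passed an adjusted p of 0.05 and the bar is the list median. Replication and mitosis genes lie left of 0 in WT (median -1.09) and secretory genes of senescence to the right (median 1.60).

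The p53 list showed rises in genes other than Cdkn1a, in a WT fit that called 19.8% of all genes higher and 14.1% lower. Of 22 regulators and targets, 8 rose and 0 fell in WT, with a median of 0.38: Gdf15, a stress-induced cytokine (3.04), Eda2r, a death-domain receptor (2.81), Ccng1 (1.81), Pmaip1, which encodes Noxa (1.46), Fas (1.42), Phlda3 (1.07), Bbc3, which encodes Puma (1.04), and Zmat3 (0.58). Without KO PBS mouse 136, 11 rose and 4 fell in WT, in a fit that called 45.7% of all genes. Trp53 itself had 115 CPM in WT PBS and 89.7 CPM in WT BLM (-0.36, adjusted p = 0.0788), and Mdm2, the ligase that removes p53, had 59.7 and 73.2 CPM (0.30, adjusted p = 0.125). In KO 1 of the 22 was called, Gdf15 (2.91, adjusted p = 0.0454), where 0.306% of all genes were called. Its level was 0.133 to 0.536 CPM in KO PBS and 1.56 to 3.07 CPM in KO BLM. With 0.127 to 0.23 CPM in WT PBS, it was in the fit mainly through its counts under bleomycin. Gdf15 is named for being the single call. Without mouse 136, 6 of the 22 were called higher and 2 lower in KO, and without mice 136 and 141, 9 and 3.

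The secretory genes linked to senescence, the longest list, were called in 1 direction in WT. There 27 of 41 rose and 0 fell (1 fell without KO PBS mouse 136), with a median of 1.60 beside 0.018 over all genes. With all mice 19.8% of all genes were called higher and 14.1% lower. Mmp13, a collagenase, rose from 0.187 to 42.7 CPM, Spp1, osteopontin, from 2.44 to 83.6 CPM, and Mmp12, an elastase of macrophages, from 2.88 to 62.3 CPM. In KO 2 of 41 were called, Timp1 (3.30, adjusted p = 0.0305) and Ccl3 (4.61, adjusted p = 0.0387), where 0.306% of all genes were called. Ccl3 was at 0.0332 to 0.2 CPM in KO PBS and 1.32 to 6.61 CPM in KO BLM. Ccl3, and Cxcl1, Cxcl2 and Mmp10 among the 27 that rose in WT, were in the fit mainly through their counts under bleomycin. The KO median was 0.89. Without mice 136 and 141, 18 were called higher and 1 lower, where 22.3% of all genes were called. Many of these genes are also made by macrophages and by fibroblasts, whose summed markers are given above: the summed level of 13 macrophage markers was 488 to 1100 CPM in WT PBS and 2510 to 3650 CPM in WT BLM, and 515 to 2410 CPM in KO PBS and 1710 to 2390 CPM in KO BLM, none of the markers was at 0 in all mice, and their part in the secretory genes was not tested.

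Genes that set the level of Cdkn2a and Cdkn2b transcripts moved in both directions in WT, where 3 of 24 rose and 8 fell, with a median of -0.36. Over all genes 19.8% were called higher and 14.1% lower. Components of the Polycomb complexes, which silence the locus, were among those that fell: Cbx2 (-1.36), Cbx8 (-1.09) and Ezh2, the methyltransferase, from 49.7 to 27 CPM (-0.88, adjusted p = 0.00749). Bmi1, the Polycomb protein best known for restraining Cdkn2a, had 22 and 23.2 CPM (0.07, adjusted p = 0.829), and Cbx7 had 36.4 and 51.4 CPM (0.50, adjusted p = 0.0929). Tbx3, a repressor of the locus, rose (1.82), as did Ets1 (1.19), an activator of p16Ink4a, and Smad3 (0.36), a TGF-β signal transducer. In KO 0 of 24 were called, with Ezh2 at 33.0 and 38.8 CPM (0.23, adjusted p = 0.449). Without mice 136 and 141, 1 was called higher and 3 lower, where 22.3% of all genes were called.

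Of 13 tested regulators of p27 and p21, ubiquitin ligase parts, kinases and the FoxO transcription factors, 5 fell and 2 rose in WT. Over all genes 14.1% were called lower and 19.8% higher. Skp2, the ubiquitin ligase subunit that marks p27 for destruction, fell from 17.1 to 8.27 CPM (-1.05, adjusted p = 0.0314), and its cofactor Cks1b (-0.94) and Dtl (-1.19), of the ligase that marks p21, fell too. The other two that fell were Foxo1 (-0.93) and Foxo3 (-0.89), which act on Cdkn1b transcription. Their relative Foxo4 (0.51) and Akt1 (0.35), a kinase that phosphorylates p27, rose. In KO 0 of 13 were called, with Skp2 at 9.22 and 9.93 CPM. Without mice 136 and 141, 3 were called higher and 1 lower, where 22.3% of all genes were called.

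The remaining senescence markers did not move one way. In WT 2 of 13 rose and 6 fell, with a median of -0.56, where 19.8% of all genes were called higher and 14.1% lower. Lmnb1, the nuclear lamin B1 that is lost in senescent cells, fell from 120 to 34.1 CPM (-1.81, adjusted p = 0.0187). Glb1, the lysosomal β-galactosidase, rose from 24.0 to 43.6 CPM (0.86, adjusted p = 0.0122). Hmga2, a chromatin protein, rose (4.78), with 0.164 to 0.204 CPM in WT PBS and 4.79 to 6.23 CPM in WT BLM. Hmga2 was in the fit mainly through its counts under bleomycin. Dpp4, a surface peptidase used as a senescence marker, fell (-2.29), as did Ube2c (-1.46). In KO 0 of 13 were called, and without mice 136 and 141, 5 were called higher and 1 lower, where 22.3% of all genes were called. Lmnb1 was at 108 CPM in the highest KO PBS mouse and 25.1 CPM in the lowest, and at 54.5 to 96.1 CPM in KO BLM.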

How the data were processed

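RNA-seq of skin from 12 mice was used, 3 in each of 4 groups set by the GEO labels. Libraries were made from mRNA with a stranded kit and read from both ends, and the authors deposited raw counts of reads per gene, as whole numbers; the submitters' processing notes name GRCm38.p6 and MultiQC 1.7, and the aligner, the counter and its use of strand are not given in the sources used here. The study tested with DESeq2. Here filterByExpr (at least 10 counts scaled to the smallest group, 15 in total) kept 18311 of 34689 detected genes. They were scaled by TMM and fitted in edgeR 4.0.16 (R 4.3.3, limma 3.58.1) by quasi-likelihood with 4 group means; the 4 group contrasts and the difference between bleomycin responses were tested, with Benjamini-Hochberg adjustment over all tested genes at 0.05. The common dispersion was 0.122, a biological coefficient of variation of 34.9%. CPM used TMM-scaled totals, log2 CPM a prior count of 2, and per-length levels the merged exons of GENCODE M21, in which 98.1% of symbols had 1 match. Controls are described as littermates, but no source used here ties a mouse to a litter or cage, so litter could not be fitted and p-values measure the spread between mice. On simulated WT counts of 18046 genes, 161 of 200 genes changed 4-fold were recovered (80.5%), with 7 other calls.

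The 8 genes, 8 pathway lists and 10 marker lists were chosen with earlier results of these data known. All 8 genes were named, with 15 partners, up to 3 called genes per list and direction by fold (mean of at least 1 log2 CPM), and the 3 genes most correlated with each, of which 1 is not reported here. Gdf15 in KO, Ccl3, Cxcl1, Cxcl2, Mmp10, Foxo1, Foxo3, Hmga2, Fas, Phlda3, Bbc3 and Zmat3 were named after their values were seen. Motifs were counted in the 250 bases before RefSeq start sites. Alternatives were DESeq2 1.42.0, other scalings and filters, fits of the compared groups only, each mouse left out, mice 136 and 141 left out together, and the hair mean as a covariate. Figures were drawn with matplotlib 3.10.9.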

Additional observations from a re-analysis of the deposited data

Results flagged for a closer look

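Cdkn3 was flagged because every WT BLM mouse lay below every WT PBS mouse while every KO BLM mouse lay above every KO PBS mouse. The difference between the responses, KO minus WT, was 1.46 on the log2 scale (95% interval 0.45 to 2.47), with an unadjusted p of 0.00888 and an adjusted p of 0.0868 in edgeR's quasi-likelihood test, so that it did not pass the threshold over all genes. Leaving out 1 mouse at a time gave 1.19 to 1.99 and adjusted p-values from 0.000972 to 0.196. The call was made in 1 of the 12 fits, the one without KO PBS mouse 136, which called 39.9% of all genes. The mean log2 CPM of the hair growth genes was 10.05 in mouse 136 and -0.74 and 2.13 in the other KO PBS mice, and with that mean as a covariate the difference was 0.50 (adjusted p = 0.808).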

How the results depend on the processing

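Of 791 alternative values of the 8 genes' log2 fold changes, 678 kept their direction and side of the threshold, 29 lost and 25 gained a call, and 59 changed sign; where no value above shows a cause, the cause was not tested. No group mean level of a gene moved by more than its spread. With 3 mice per group, a spread of 34.9% and 2 to 11 Cdkn2a reads under PBS, small differences and the size of the Cdkn2a folds are poorly bounded. No paired analysis was possible because every mouse has its own number. Among list genes, 96, 3, 0, 0 and 0 were called in the WT response, the KO response, KO PBS against WT PBS, KO BLM against WT BLM and the difference between responses. Of all genes, 34.0%, 0.306%, 0.0655%, 0.0928% and 0.00% were called there. DESeq2 gave 28 in the KO response, with 4 members, 13 between the PBS groups, 8 and 1 member between the bleomycin groups, and 66 and 1 member in the difference. It called 5.95%, 3.69%, 2.99% and 17.8% of the genes it tested in these 4 comparisons. Without a filter, 2 members were called in WT (15.5% of all genes were) and 10 list genes in KO (0.507%). With only the KO groups fitted, 0 members, 0 list genes and 0.00% of all genes were called in KO. With the hair mean as a covariate, 0 members and 1 list gene were called in WT, where 0.0382% of all genes were called. In KO that covariate gave 3 members and 35 list genes, where 9.02% of all genes were called. Without mice 136 and 141 the KO response called 6 members and 78 list genes, the PBS comparison 2 and 101, the bleomycin comparison 17 list genes, and the difference 2 and 95. Of all genes these 4 comparisons then called 22.3%, 40.9%, 4.36% and 38.6%. Leaving out 1 mouse at a time gave 1 to 5 members and 51 to 122 list genes in WT, 0 to 3 and 0 to 68 in KO, 0 to 2 and 0 to 92 between the PBS groups, 0 to 31 list genes between the bleomycin groups, and 0 to 2 and 0 to 98 in the difference; apart from the members in WT, each upper end is that without KO PBS mouse 136. The WT list counts of 51 to 63 are those without 1 of the 6 WT mice, and the others are 88 to 122.

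The sign changes were of estimates that had not been called. In WT, Cdkn1a was -0.01 without a filter. Cdkn2c in WT was 0.03 with upper-quartile scaling, with a minimum mean of 1 CPM and with the hair covariate, and 0.01 with the compared groups only. The hair covariate also gave Cdkn3 0.36 in WT and Cdkn1c 0.03 in KO. Between the PBS groups it gave Cdkn1a 0.02, Cdkn1c -0.03, Cdkn2a -0.50 and Cdkn2d -0.09, between the bleomycin groups Cdkn1a -0.19, Cdkn1b -0.23 and Cdkn2a 0.09, and in the difference Cdkn1a -0.21, Cdkn2a 0.59, Cdkn2b -0.10 and Cdkn2d 0.20. Without mice 136 and 141, Cdkn1c was 0.19 and Cdkn2c -0.10 in KO, Cdkn2c 0.04 between the PBS groups, Cdkn1b -0.14 and Cdkn2c -0.05 between the bleomycin groups, and Cdkn2c -0.09 and Cdkn2d 0.09 in the difference. A minimum mean of 1 CPM gave Cdkn2d -0.01 between the bleomycin groups. With 1 mouse left out, Cdkn1a ran from -0.04 to 0.14 and Cdkn2c from -0.32 to 0.23 in WT, Cdkn1c from -0.66 to 0.21 in KO, Cdkn2c from -0.15 to 0.05 and Cdkn2d from -0.07 to 0.15 between the PBS groups, Cdkn1b from -0.11 to 0.17, Cdkn2c from -0.18 to 0.38 and Cdkn2d from -0.06 to 0.13 between the bleomycin groups, and Cdkn1b from -0.24 to 0.07, Cdkn2b from -0.14 to 0.37, Cdkn2c from -0.10 to 0.45 and Cdkn2d from -0.11 to 0.11 in the difference.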
